A study of Caenorhabditis elegans with 6 samples.

Results

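The genes of the proteasome were compared between worms with a low and a high number of exophers. The members are all genes of the deposited count table whose symbol begins with *pas*-, *pbs*-, *rpt*- or *rpn*-, and there were 33 of them among the 46756 genes listed. They comprise 7 alpha and 7 beta genes of the core particle and 19 genes of the regulatory particle, namely 6 ATPases and 4 other genes of the base and 9 genes of the lid. The rule used only gene names and no measured value, but the set was chosen with earlier results of these data known.

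RNA came from whole *C. elegans* hermaphrodites at adulthood day 2, grown at 20 °C on *E. coli* OP50, with 3 libraries from animals that had fewer than 2 exophers and 3 from animals that had more than 20. Exophers are large vesicles that body wall muscle cells expel, and the groups were formed by this count among worms of a single strain, with no treatment. All 6 libraries come from strain ACH93, which has an N2 background but carries transgenes in both groups. One of them, wacIs1, expresses a recoded *rpn-5* fused to wrmScarlet in muscle from the *myo-3* promoter, with the *unc-54* 3′ end and a copy of *unc-119*. The other, wacIs14, expresses the start of *tomm-20* fused to GFP from the same promoter and with the same additions. Exophers were therefore counted by a fluorescent proteasome subunit, and one member of the gene set has an added copy in every sample. How many worms went into each library is not stated in the sources.

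The proteasome degrades proteins that carry a ubiquitin chain. Its core particle is a barrel in which rings of alpha subunits guard the entrance and rings of beta subunits hold the proteolytic sites. The regulatory particle caps the barrel, and its base unfolds the substrate with a ring of ATPases while its lid removes the ubiquitin. In *C. elegans* the genes of the complex are raised together by the transcription factor SKN-1A when proteasome function falls. Each subunit has a fixed number of copies in the finished particle.

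The libraries held between 60511481 and 72909583 counts, and the 33 genes took between 0.807% and 0.944% of them. Markers of body wall muscle, intestine, germline, oocyte and embryo were all detected, as the label of a whole hermaphrodite implies. Some libraries stood apart. Of 15 tested sperm markers, 11 passed the test with lower levels in high exopher libraries. These were the genes of the *msp* family in the list, *gsp-3*, *gsp-4* and *ssq-1*, while *spe-9*, *spe-11*, *spe-41* and *spe-42* did not pass. The summed normalized counts of the list were between 2308 and 6167 with few exophers against between 664 and 1035 with many, with the highest value in low replicate 1. Of the 8 body wall muscle markers, *unc-15* and *tnt-2* were lower and *myo-3* higher with an adjusted p below 0.05 from edgeR, and the median log2 fold change of the list was -0.36. In high replicate 1, long genes had lower and short genes higher counts than in the other libraries, a trend described further below beside the results it touches.

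None of the 33 genes passed the test for a difference between the groups. With edgeR's quasi-likelihood test across the 15883 genes with enough counts, 0 of 33 had an adjusted p below 0.05, while 3.41% of all genes tested passed with higher and 3.1% with lower levels in high exopher worms. At an unadjusted p below 0.05 there were 0 of 33, against 17% of all genes tested. DESeq2's Wald test and limma-voom also called 0 of 33. All 33 genes passed the filter on low counts, so none was left out. Normalized counts of the groups overlapped for each of the 33 genes, whereas they did not overlap, with high above low, for 11.8% of all genes tested and, with high below low, for 9.96%. In RNA from whole worms, fewer cells of a type and less RNA per cell cannot be told apart.

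The estimates were also small. The log2 fold changes, given as high over low throughout, ran from -0.062 for *rpn-1* to 0.10 for *pbs-4*, with standard errors between 0.071 and 0.12. Changes of 0.11 or less in either direction were found for all 33 genes and for 38.2% of all genes tested. The limit of 0.11 lies just above the largest change among the 33 genes, so their count follows from the limit. All genes tested include many with lower counts, and the share among genes of similar level was not computed. The 38.2% is therefore not read as a sign that the 33 genes are unusually stable. In this fit, which does not pair libraries by replicate number, the 95% intervals of the 33 log2 fold changes lay between -0.34 and 0.30. All 33 intervals were within a change of 1.3-fold in either direction. The adjusted p values ran from 0.666 to 1.00 in edgeR's test. The median log2 fold change was 0.047 over the 33 genes and -0.013 over all genes tested.

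**Figure D1:**
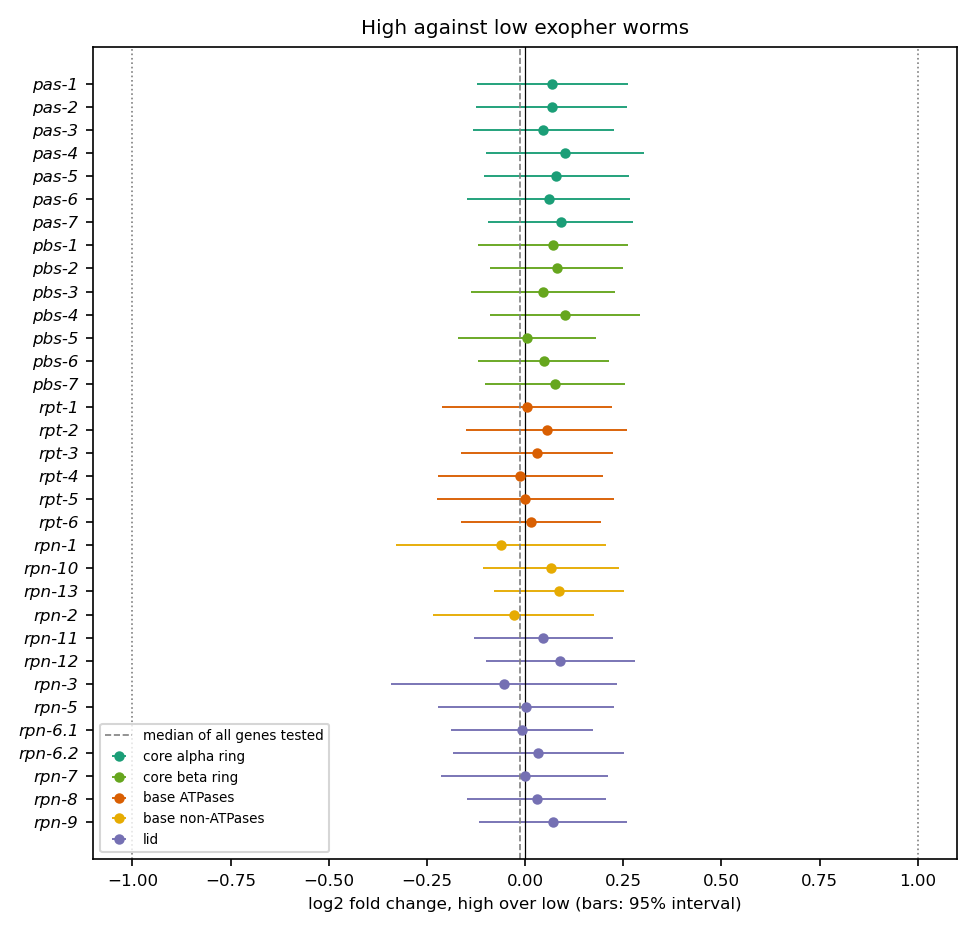
Log2 fold change of each of the 33 proteasome genes, high over low exopher worms, with its 95% interval from edgeR's quasi-likelihood fit, coloured by sub-complex; dotted lines mark a log2 fold change of 1 and the dashed line the median of all genes tested (-0.013). Every interval lies between -0.34 and 0.30 and spans 0.

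The genes were among the more abundant ones and were close to each other in level. Their mean normalized counts, which are counts scaled to a common effective library size, ranked between 287 and 1675 among the 15883 genes tested, except for *rpn-6.2* at rank 5839. Without *rpn-6.2*, their counts in single libraries were between 8300 and 35184, so that counting error was small beside the spread between replicates. Per kilobase of exon the levels without *rpn-6.2* lay between 8942 normalized counts for *rpn-6.1* and 23524 for *pbs-1*, a range of 2.63-fold. Per kilobase the core genes were the higher ones. The 14 core genes lay between 14303 and 23524 with a median of 17056, and the highest of the 19 base and lid genes, *rpt-2*, reached 16952, below that median. The 7 core genes with the highest level per kilobase lay above every gene of the base and the lid. The base ATPases had 10041 to 16952 normalized counts per kilobase, the other base genes 9752 to 10484, and the lid genes other than *rpn-6.2* 8942 to 16146.

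**Figure D2:**
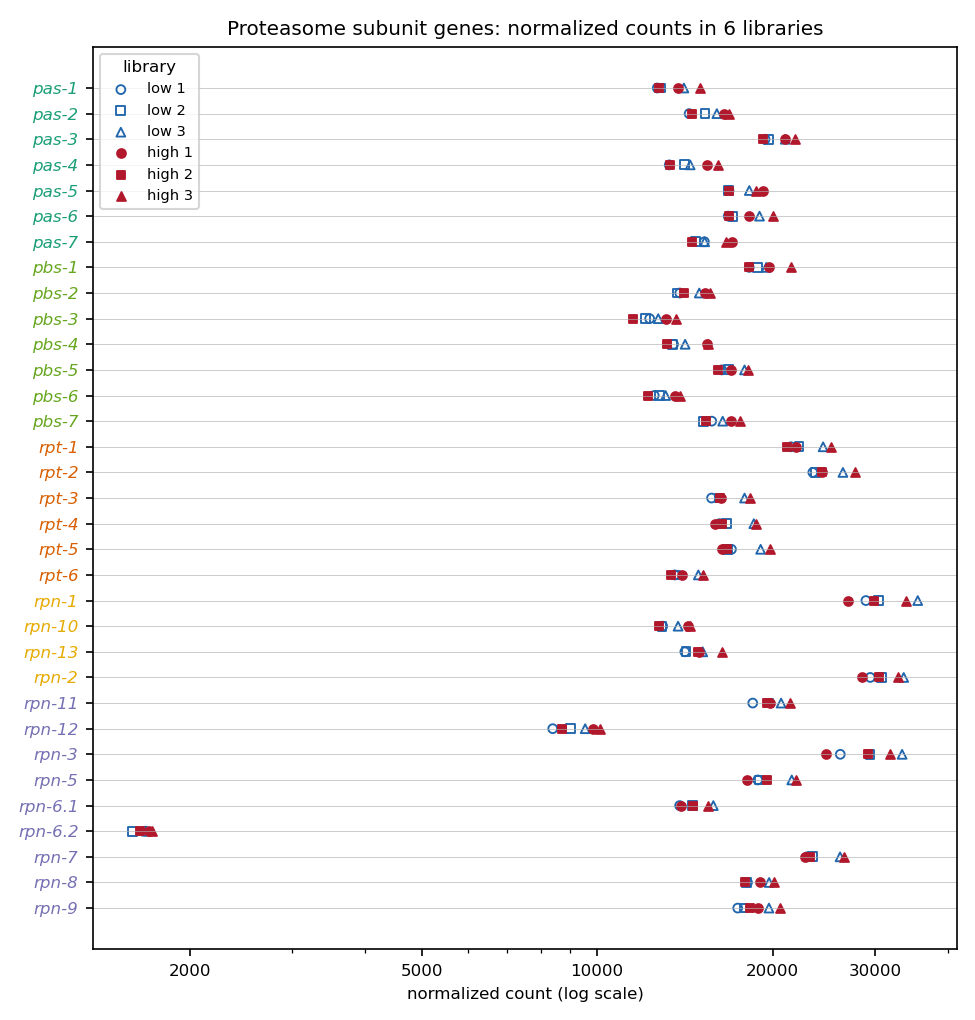
Normalized counts (log scale) of the 33 proteasome genes in the 3 low (open symbols) and 3 high (filled symbols) exopher libraries, with gene names coloured by sub-complex as in the plot of fold changes. The 6 values of a gene lie close together, within 1.35-fold at most, and *rpn-6.2* is the only gene far below the others.

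The alpha genes *pas-1* to *pas-7* encode the outer rings of the core particle. All 7 had a log2 fold change above 0, from 0.047 for *pas-3* to 0.10 for *pas-4*, and none passed the test. *pas-4* (WBGene00003925, chromosome I from 8727218 to 8728487 in WBcel235, 4 exons) had 13299, 14118 and 14443 normalized counts in the low exopher replicates 1, 2 and 3 and 15452, 13336 and 16105 in the high exopher replicates. High replicates 1 and 3 were above every low exopher library, and high replicate 2 was within their range. The log2 fold change of *pas-4* was 0.10 (standard error 0.087, 95% interval -0.10 to 0.30, adjusted p = 0.691 from edgeR). *pas-3* (chromosome I from 5105110 to 5106048) had the highest level per kilobase among the alpha genes, 22820, and its normalized counts were 19416, 19699 and 21033 with few exophers against 21041, 19258 and 21824 with many. Here high replicate 2 was the lowest of all 6 libraries. The remaining alpha genes, *pas-1*, *pas-2*, *pas-5*, *pas-6* and *pas-7*, had log2 fold changes of 0.070, 0.067, 0.080, 0.060 and 0.090.

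The beta genes *pbs-1* to *pbs-7* encode the inner rings, and the subunits made from *pbs-1*, *pbs-2* and *pbs-5* carry the proteolytic sites. All 7 were again above 0 without passing the test, from 0.0046 for *pbs-5* to 0.10 for *pbs-4*. *pbs-5* (WBGene00003951, chromosome I from 14719167 to 14720477), whose product has the chymotrypsin-like activity, had 16362, 16791 and 17905 normalized counts with few exophers against 16943, 16102 and 18175 with many. Both groups covered nearly the same range, and the log2 fold change had a standard error of 0.076 and a 95% interval from -0.17 to 0.18. *pbs-1* (chromosome IV from 1708814 to 1709745) had 18241, 18832 and 19513 against 19720, 18193 and 21520 normalized counts, and *pbs-2* (chromosome I from 12967216 to 12968280) had 13862, 13740 and 14973 against 15344, 14082 and 15598. Their log2 fold changes were 0.071 and 0.081, with standard errors of 0.082 and 0.073. For *pbs-1*, high replicate 2 had the lowest value of all 6 libraries. *pbs-4* (WBGene00003950, chromosome I from 3908747 to 3909701) had the highest log2 fold change and the lowest adjusted p of the 33 genes, 0.666 from edgeR. Its normalized counts were 13525, 13448 and 14159 with few exophers against 15460, 13161 and 15495 with many, so that the high group held both the highest and the lowest value. The exons of *pbs-4* overlap an antisense gene over 73 of their 801 bases, and whether the counting used strand is not stated in the sources. *pbs-3*, *pbs-6* and *pbs-7* had log2 fold changes of 0.045, 0.047 and 0.076.

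The base ATPases *rpt-1* to *rpt-6* form the ring that unfolds substrates and opens the core. Their log2 fold changes lay between -0.012 for *rpt-4* and 0.055 for *rpt-2*. *rpt-2* (WBGene00004502, chromosome V from 6016059 to 6017669) had 23450, 23678 and 26412 normalized counts with few exophers against 24353, 24307 and 27724 with many, with a standard error of 0.088 for its log2 fold change (adjusted p = 0.855, edgeR). *rpt-4* (chromosome II from 42207 to 46216) had 16221, 16700 and 18574 against 15960, 16378 and 18736. Replicate 3 was the highest in both groups for each of these genes. *rpt-1*, *rpt-3*, *rpt-5* and *rpt-6* had log2 fold changes of 0.0041, 0.031, 0.00036 and 0.015.

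Of the other base genes, *rpn-1* and *rpn-2* encode the large scaffolds, and *rpn-10* and *rpn-13* encode ubiquitin receptors. The scaffolds lay below 0 and the receptors above. *rpn-1* (WBGene00004458, chromosome IV from 6906420 to 6909913) had the lowest log2 fold change of the 33 genes, -0.062 (standard error 0.12, 95% interval -0.33 to 0.20, adjusted p = 0.876 from edgeR). It had 28920, 30365 and 35492 normalized counts with few exophers against 26961, 29887 and 33910 with many. Replicate 3 was the highest in both groups, and the groups covered much the same range. *rpn-2* had a log2 fold change of -0.029. *rpn-13* (WBGene00016981, chromosome III from 6340113 to 6341928) was at the other end of this group with 0.087 (standard error 0.071, adjusted p = 0.666 from edgeR), from 14143, 14205 and 15180 against 14979, 14892 and 16366 normalized counts. High replicates 1 and 2 lay below low replicate 3, so the groups overlapped. *rpn-10* (WBGene00004466, chromosome I from 10730712 to 10732424), known in *C. elegans* for a part in sex determination of the germline, had 12958, 12926 and 13770 against 14296, 12746 and 14450 normalized counts. High replicate 2 was the lowest of the 6 and the other high exopher libraries were the highest, giving 0.065 ± 0.074 (standard error) on the log2 scale, with adjusted p = 0.780 in edgeR.

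The lid genes ran from -0.053 for *rpn-3* to 0.089 for *rpn-12*. *rpn-3* (WBGene00004460, chromosome III from 8447353 to 8449346), the gene of a structural lid subunit, varied most of all 33, with 26137, 29390 and 33368 normalized counts with few exophers against 24728, 29122 and 31819 with many. Its lowest and highest values differed by 1.35-fold, and the 2 groups covered nearly the same range. *rpn-12* (chromosome II from 11653124 to 11654192), the shortest lid gene with 855 exon bases, had 8393, 8988 and 9539 against 9829, 8692 and 10115 normalized counts, with high replicate 2 again within the low exopher range. *rpn-11* (WBGene00004467, chromosome II from 4043055 to 4044546), whose product cuts the ubiquitin chain off the substrate, had 18494, 19666 and 20688 against 19839, 19559 and 21392, a log2 fold change of 0.047 with an adjusted p of 0.857 from edgeR. *rpn-7*, *rpn-8* and *rpn-9* had -0.00055, 0.030 and 0.072. *rpn-7* and *rpn-9* overlap antisense genes over 394 and 140 exon bases, which is 20.7% and 10.6% of their exon length.

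The gene *rpn-5* (WBGene00004461, chromosome II from 4696418 to 4698427) is the one whose recoded copy marks the exophers. Its normalized counts were 18865, 19022 and 21577 with few exophers against 18047, 19554 and 21924 with many. High replicate 1 was the lowest and high replicate 3 the highest of the 6, and the log2 fold change was 0.0015 (standard error 0.097, 95% interval -0.22 to 0.23, adjusted p = 0.997 from edgeR). Per kilobase *rpn-5* had 11591 normalized counts, within the range of the lid genes. The gene *myo-3*, whose promoter drives the added copy, was higher in high exopher worms, with 2998, 2719 and 3001 against 4103, 5759 and 4266 normalized counts and a log2 fold change of 0.70 (adjusted p = 0.0234 from edgeR). Reads of the added copy count for *rpn-5* only where its recoded sequence still aligns to the genome, and the sources used here do not state how many do, so the copies cannot be told apart in these counts.

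The paralogs *rpn-6.1* and *rpn-6.2* differed in level and not detectably between the groups. *rpn-6.1* encodes the lid subunit that clamps base and core together. It had 13855, 14589 and 15828 normalized counts with few exophers against 13939, 14627 and 15473 with many, and its log2 fold change was -0.0076 ± 0.078 (standard error), with adjusted p = 0.984 in edgeR. *rpn-6.2* (WBGene00010309, chromosome III from 8999817 to 9001999) had 1678, 1595 and 1685 against 1705, 1644 and 1726. Per kilobase *rpn-6.1* was 8.33-fold above *rpn-6.2* over all libraries and between 7.73-fold and 8.89-fold in single libraries. Reads that align to both copies were dropped in the counting, so the level of each paralog is uncertain.

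The core particle and the base and lid differed slightly in their medians. The median log2 fold change was 0.070 over the 14 core genes, with 14 of 14 above 0, and 0.015 over the 19 base and lid genes, with 13 above and 6 below 0. Of the 15883 genes tested, 7503 were above 0. The core count fell to 13 with DESeq2's scaling factors, in DESeq2's Wald test and without low replicate 1 or 2. It fell to 11 without high replicate 3 and stayed at 14 in the other fits. By group the medians were 0.070 for the alpha genes, 0.071 for the beta genes, 0.0097 for the ATPases, 0.018 for the other base genes and 0.030 for the lid. The base and lid thus lay 0.055 below the core on the log2 scale. In single libraries that difference had a pooled SD of 0.061 within groups, which is not the error of a difference between groups. Within replicate numbers 1, 2 and 3 the median difference, high minus low, was 0.12, -0.032 and 0.086 for the core. For the base and lid it was 0.028, -0.0083 and 0.033. The difference between core and base and lid was not tested. Summed over the core genes, the normalized counts per kilobase were 234560, 237170 and 251870 with few exophers against 258460, 231780 and 267910 with many. Over the base and lid they were 211050, 217530 and 239770 with few exophers against 216120, 216920 and 244460 with many. The groups overlapped in both sums. The ratio of base and lid to core was 0.90, 0.917 and 0.952 with few exophers against 0.836, 0.936 and 0.912 with many, a mean of 0.923 ± 0.027 (SD, n = 3) against 0.895 ± 0.052 (SD, n = 3). High replicate 1 had the lowest ratio of the 6, and the other high exopher libraries were within the range of the low ones. Without high replicate 1 the base and lid lay 0.014 below the core instead of 0.055. All 33 genes were above 0 without high replicate 1, and likewise without low replicate 3, whereas 17 of 33 were above 0 without high replicate 3.

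Across the genes, the log2 fold change went with exon length. The 14 core genes have 801 to 1059 exon bases and the base and lid genes 855 to 3171. Across the 33 genes the log2 fold change correlated with log2 exon length with r = -0.80, a description over genes that share the same libraries. In high replicate 1 the deviation of each gene from its own mean had r = -0.84 with log2 exon length, and in low replicate 3 it had r = 0.77, in high replicate 2 0.70 and in low replicate 2 0.40. In low replicate 1 and high replicate 3 it was -0.023 and 0.011. The same trend was present in other genes. Among other genes with a mean of at least 5000 normalized counts, the median log2 fold change was 0.075 for 542 genes of up to 1000 exon bases, 0.0028 for 638 genes over that and up to 1500, -0.025 for 607 genes up to 2000, -0.045 for 729 genes up to 3000 and -0.071 for 717 longer genes. When the median of the other genes of the same length class was subtracted, the medians were -0.0018 for the core and 0.027 for the base and lid, so that the order of the 2 turned. The 4 base and lid genes under 1300 exon bases, *rpn-8*, *rpn-10*, *rpn-11* and *rpn-12*, had a median of 0.056, which is 0.014 below the core. Of these only *rpn-12*, with 855 exon bases, lies within the core range. The others have 1234 to 1290 and are longer than every core gene, so length is not matched here. The length classes and the limit of 1300 bases were chosen after the values had been seen.

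**Figure D3:**
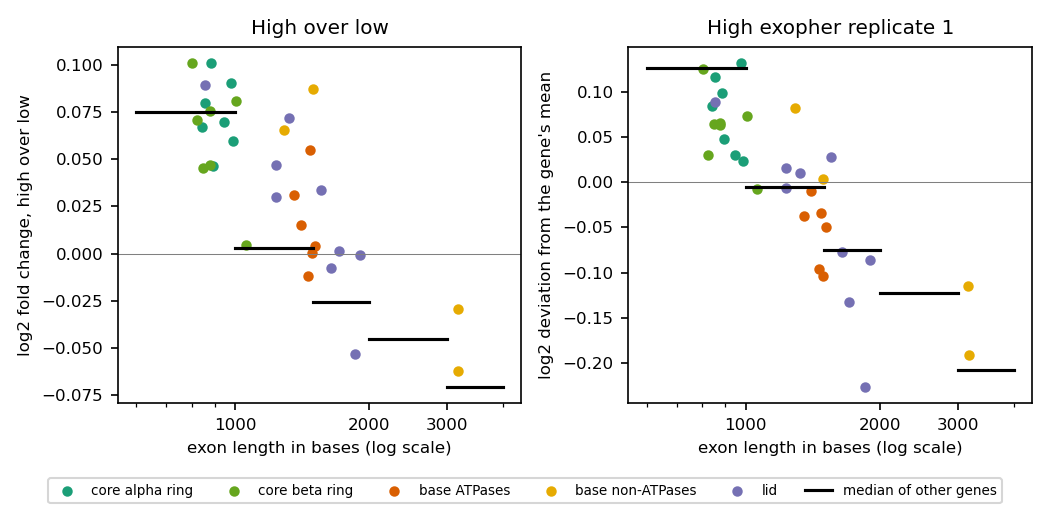
Exon length (log scale) of the 33 proteasome genes against their log2 fold change, high over low (left), and against the log2 deviation of high exopher replicate 1 from the gene's mean over 6 libraries (right). Black lines are medians of other genes with at least 5000 normalized counts in 5 length classes (the outer classes are drawn only in part); the core genes lie at the short end, and *rpn-1* and *rpn-3* are the lowest 2 in both panels.

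Between libraries the 33 genes moved together by more than they differed between groups. The highest normalized count fell in high replicate 3 for 27 of 33 genes, in low replicate 3 for 4 and in high replicate 1 for 2. The lowest fell in low replicate 1 for 11 genes, in high replicate 2 for 11, in high replicate 1 for 7 and in low replicate 2 for 4. The median deviation of the 33 genes from their own means was -0.073, -0.050 and 0.061 for low replicates 1, 2 and 3, against 0.016, -0.074 and 0.13 for high replicates 1, 2 and 3. Replicate 3 was thus the highest of its group in both. Other gene lists shared this. Summed normalized counts were also highest in replicate 3 of both groups for the oocyte markers (561920 and 551290, against 414270 to 446770 in the other libraries), the germline markers (260700 and 257090, against 218000 to 230240) and the CCT chaperonin genes (268160 and 263690, against 215940 to 253360). The same held for the genes of proteasome-bound factors, SKN-1A activation, ubiquitin and CDC-48, and the COP9 signalosome, and did not hold for the sperm, zygotic embryo, body wall muscle, intestine, neuron and male soma markers. The part of oocyte and germline RNA in the levels of the proteasome genes was not tested. Compared within replicate numbers, high lay above low in 26, 10 and 29 of the 33 genes for the numbers 1, 2 and 3, and in 8 genes for all 3 numbers. The median difference was 0.093, -0.014 and 0.053 on the log2 scale. All 14 core genes were higher in the high exopher library of numbers 1 and 3, and 3 of 14 in that of number 2. With the replicate number as a block, 0 of 33 genes passed the test as well, and the smallest adjusted p was 0.380 from edgeR, for *rpn-13*. The block gave smaller standard errors than the main fit, such as 0.057 against 0.12 for *rpn-3* and 0.086 against 0.094 for *rpn-6.2*.

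**Figure D4:**
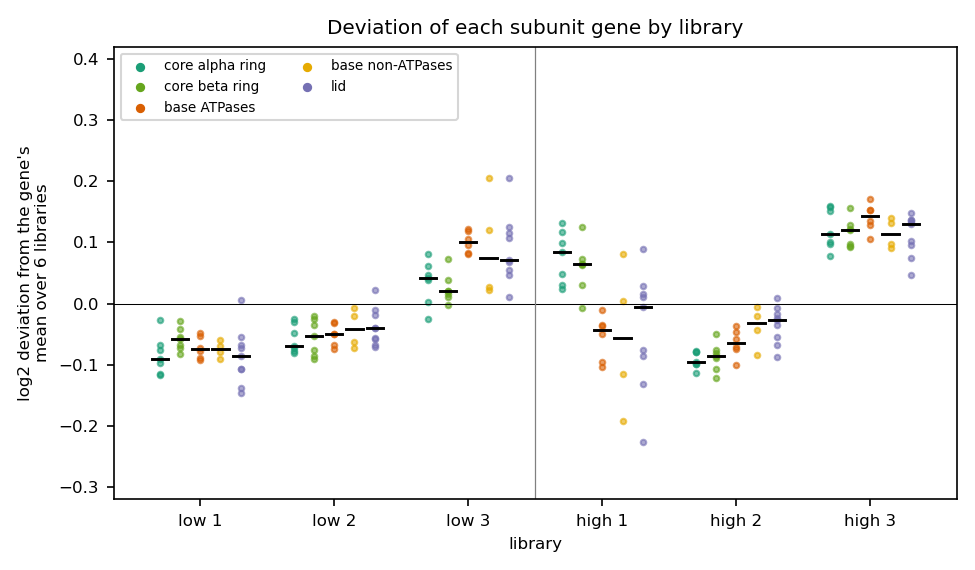
Log2 deviation of each of the 33 genes from its own mean over the 6 libraries, by library and sub-complex (points, 1 per gene; black bars, medians). The medians of replicate 3 are above 0 in both groups, and in high replicate 1 the medians of both core rings lie above 0 while all 6 ATPases lie below.

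Genes that act with the proteasome were compared in the same fit. The proteins of 8 genes bind or regulate the particle, and 0 of these genes passed the test, with a median log2 fold change of -0.029. The largest change among them was that of *ecps-1*, a long gene of 5578 exon bases for a proteasome adaptor, at -0.18 (adjusted p = 0.657 from edgeR). *psme-3*, the gene of an alternative cap of the core, had 3034, 3232 and 3181 normalized counts with few exophers against 3008, 2944 and 2919 with many. Its groups did not overlap, but the log2 fold change of -0.091 did not pass (adjusted p = 0.639, edgeR). The small lid protein gene *dss-1*, the deubiquitinase genes *ubh-4* and *usp-14* and the shuttle genes *rad-23* and *ubql-1* lay between -0.055 and 0.016. These genes and *psme-3* were named after their values had been seen, as were *ddi-1*, *png-1* and the ubiquitin genes below. Of the 5 genes that make or activate SKN-1A, 0 passed the test. *skn-1* itself had the largest change, -0.14 (standard error 0.12, adjusted p = 0.712 from edgeR), with 14474, 15519 and 18374 against 12540, 15549 and 15952 normalized counts. The protease gene *ddi-1* and the glycanase gene *png-1*, both needed to activate SKN-1A, had 0.00070 and -0.024.

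Of 12 genes for ubiquitin, its activation and conjugation and the unfoldase CDC-48, 0 passed the test, and the median log2 fold change was -0.0081. The largest change was that of *uba-1*, the ubiquitin-activating enzyme gene with 3629 exon bases, at -0.20 (adjusted p = 0.648 from edgeR). The ubiquitin genes *ubq-1* and *ubq-2*, with 2823 and 435 exon bases, had -0.044 (standard error 0.11) and 0.13 (standard error 0.099). Neither could be told from 0 (adjusted p = 0.912 and 0.624 from edgeR). The COP9 signalosome is a complex related to the lid, and the CCT chaperonin is another ring complex with 1 gene per subunit. Of their 6 and 8 matched genes 0 passed, with medians of 0.024 and 0.0081, and the largest changes were those of *csn-4* (-0.10) and *cct-3* (-0.16). Each of these lists had genes on both sides of 0.

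Some further features of the 33 genes were not fixed by their names. They lie on the autosomes, 10 on chromosome I, 7 on II, 8 on III, 3 on IV and 5 on V, and 0 on the X chromosome, which holds 14.3% of all genes tested and 4.71% of the genes with a mean of at least 5000 normalized counts. The count of 0 of 33 is close to the latter share and is not read as a trait of the set. The genes have 2 to 7 exons, and 25 of the 33 have 1 annotated transcript. The exons of 11 genes share bases with another gene. For exons, transcripts and overlaps the shares over all genes were not computed.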

How the data were processed

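Raw counts per gene were deposited for 3 low and 3 high exopher libraries of poly(A) RNA. Per the labels and the methods, the authors trimmed reads with Trimmomatic 0.36, aligned them to an Ensembl *C. elegans* genome with STAR 2.5.2b and counted unique reads in exons with featureCounts (Subread 1.5.2); the genome release and the use of strand are not given in the sources used here. A second deposited table of scaled counts was not used.

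Low counts were removed by filterByExpr. TMM factors scaled the libraries, and the robust quasi-likelihood test of edgeR 4.0.16 (R 4.3.3) was run across 15883 genes with Benjamini-Hochberg adjustment and a threshold of 0.05. The study's fold minimum (absolute log2 fold change above 1) was tried as a second rule. The standard error is the size of the log2 fold change over the square root of F. DESeq2 1.42.0 and limma-voom (limma 3.58.1) were alternatives, as were other scaling factors, no filter, a block for the replicate number, and fits that left out 1 library at a time. Deviations from the group means correlated between same-numbered low and high libraries with r = 0.282, 0.259 and 0.345 across genes. The labels do not say that equal numbers pair the samples. The main fit took the samples as unpaired, and the block and the comparisons within replicate numbers took them as paired. P-values set the difference between the groups against the spread between these libraries, which in the main fit includes differences between replicate numbers.

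Symbols, positions and exon lengths (merged exons) come from Ensembl release 115 of WBcel235, in which 46581 of 46756 genes were found. Genes given in full are the highest and lowest of each sub-complex, the catalytic beta genes, *rpn-5*, *rpn-10*, *rpn-11* and the *rpn-6* pair; the others are given by their log2 fold change. Of the related lists, the gene with the largest change and genes past the test were to be named; the sperm list and the tissue markers are given mostly by counts. The members and lists were chosen with earlier results of these data known. *csn-7* and *csn-8* were not matched by symbol.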

Additional observations from a re-analysis of the deposited data

How the results depend on the processing

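The count of 0 of 33 proteasome genes held under every alternative that was run, with the fold minimum, with other scaling factors, without the filter, in DESeq2 and limma-voom, with the replicate block and without each library. The smallest adjusted p of any of the genes in any of these was 0.302, without high exopher replicate 2. The count over all genes was less stable. It was 1034, rose to 1784 with DESeq2 and to 1967 with the replicate block, and ranged from 5, without high exopher replicate 1, to 1254 with single libraries left out; 408 passed without high exopher replicate 2, 64 without high exopher replicate 3, 567 without low exopher replicate 1 and 607 without low exopher replicate 3. The median of the 33 genes was between 0.035 and 0.099 under the scaling alternatives and between 0.0069 and 0.095 with single libraries left out, and 23 to 31 of 33 genes were above 0 under the scaling alternatives, so the sign of single genes depends on the scaling. The difference of base and lid from core ranged from -0.072 to -0.014 with single libraries left out and turned to 0.029 when genes were set against others of the same exon length, an alternative chosen after seeing the data.

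With 3 libraries a group, a change is bounded only by each gene's own interval, given here from the unpaired main fit. Counts of *rpn-6.2* were 1466 to 1837 in single libraries, so counting error weighs more on it than on the other genes. Protein levels were not measured in these libraries.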

Other observations

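Markers of other tissues are given as values. Of the 8 intestine markers 0 passed the test, with a median log2 fold change of -0.37. The 8 oocyte markers and the 6 germline markers had medians of -0.023 and -0.051, the 10 zygotic embryo markers 0.021 and the 8 neuron markers 0.082, with 0 genes past the test in each list. Of the 6 male soma markers 3 had enough counts, and 0 passed. In the body wall muscle list, *unc-54*, the main muscle myosin gene, named after its values had been seen, had 50835, 40617 and 48340 normalized counts with few exophers against 26829, 38844 and 30914 with many. Its groups did not overlap, and its log2 fold change was -0.53 (adjusted p = 0.0867 from edgeR). The 3′ end of *unc-54* is also part of both transgenes, and its part in this value was not tested.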
